A study of Mus musculus with 57 samples.

Results

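GATA6 binding at promoters 2 h after induction comprised 3299 genomic regions, 7.37% of the 44774 regions that held a GATA6 peak in both 2 h replicates. Overlapping peaks of the 2 replicate lists were merged, regions with a peak of both were kept, and a region was called a promoter region if its summit lay within 500 bp of the transcription start site of a protein-coding gene. The remaining 41475 regions are called distal. The members were thus chosen by the GATA6 peaks at 2 h, and GATA6 values at 2 h are given as a description with no test.

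The study followed mouse KH2 embryonic stem (ES) cells (C57BL/6) that carry a doxycycline (Dox)-inducible GATA6 transgene in a single copy (TRE: GATA6-FLAG / DsRed2) as they were driven from the epiblast (Epi)-like state towards primitive endoderm (PrE). Transcription factor binding was mapped by CUT&RUN, in which an antibody directs a nuclease to the sites of a protein and the released fragments are sequenced. Peak lists of 30 of the 57 samples were used, 2 replicates in each of 15 groups: SOX17 and GATA4 at 24 h, SOX2 and NANOG before induction and 2, 4 and 8 h after it, and GATA6 at these times and 48 h. The remaining 27 samples, from blastocysts or made with antibodies to histone marks or a control, were not used here. Cells at 0 h were kept in 2i medium without Dox, cells at 2, 4 and 8 h were in serum medium with 1 µg/mL Dox, and cells at 24 and 48 h had received Dox for 12 h and then serum medium without it. Any change from 0 h onwards therefore combines the medium with GATA6 induction, and the contributions cannot be told apart. All groups come from 1 cell line that carries the transgene, and the 0 h cells carry it too. The lists describe populations of cells, so binding in fewer cells and weaker binding in each cell cannot be told apart.

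The 6 GATA6 lists recorded for 4, 8 and 48 h carry other time points in their file and peak names than in their sample record. The lists named 4 h are recorded as 8 h, those named 8 h as 48 h, and those named 48 h as 4 h. The times given here are those in the names.

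GATA6 is a zinc finger transcription factor that specifies PrE, and it recognises short sites built around the letters GATA. NANOG and SOX2 maintain the Epi program, whereas GATA4 and SOX17 are PrE factors that act after GATA6. Most binding sites of such lineage factors lie in distal enhancers, and the promoters of many widely expressed genes are rich in G+C and in CpG dinucleotides and carry other short sites, such as the GC box and the CCAAT box.

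Summit sequences of 7 promoter regions show how differently these sites can be built. They were chosen after their values were seen: Tcf3, Cish and Lrrn4 as strongly bound regions with a GATA site close to the summit, Ripk2 and Edn1 as regions of similar GATA6 fold without one, and Etv5 and Nanog as promoters of a signalling gene and an Epi gene. Each window holds 91 bases around the summit, on the strand of the gene, in the mouse build GRCm38 (mm10) from RefSeq. Matches to AGATAA or AGATAG, and to the words TGATAA or TGATAG, on either strand are in capitals and all other bases are in lower case.
Tcf3: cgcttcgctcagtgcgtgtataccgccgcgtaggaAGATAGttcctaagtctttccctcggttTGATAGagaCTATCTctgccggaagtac
Cish: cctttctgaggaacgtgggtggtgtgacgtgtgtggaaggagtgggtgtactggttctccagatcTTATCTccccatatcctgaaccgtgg
Lrrn4: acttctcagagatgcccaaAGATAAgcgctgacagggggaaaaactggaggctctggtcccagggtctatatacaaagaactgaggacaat
Ripk2: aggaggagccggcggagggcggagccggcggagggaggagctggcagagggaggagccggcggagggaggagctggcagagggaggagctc
Edn1: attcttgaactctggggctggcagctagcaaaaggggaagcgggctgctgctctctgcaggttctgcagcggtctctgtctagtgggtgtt
Etv5: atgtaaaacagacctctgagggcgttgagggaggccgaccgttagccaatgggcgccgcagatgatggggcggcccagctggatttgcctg
Nanog: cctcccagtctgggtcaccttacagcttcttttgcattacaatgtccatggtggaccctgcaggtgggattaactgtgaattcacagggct

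The Tcf3 window, chr10:80433874-80433964 (− strand), held 3 GATA matches, with the summit at -272 bp from the start of this bHLH transcription factor gene. The Cish window, chr9:107295797-107295887 (+ strand), held 1 match, with the summit in an annotated intron and at -184 bp from the start of this cytokine signalling inhibitor. The Lrrn4 window, chr2:132881251-132881341 (− strand), held 1 match, with the summit at -405 bp from the gene start. Ripk2, a kinase gene of innate immune signalling, had a G+C content of 75.8% in its window, chr4:16163771-16163861 (− strand), and Edn1, the gene of the endothelin precursor, had none of the searched GATA words at chr13:42301308-42301398 (+ strand). The window of Etv5, an ETS factor gene downstream of FGF signalling, held 1 CCAAT word and 1 GC box (GGGCGG) at chr16:22439762-22439852 (− strand). The window of Nanog, chr6:122707384-122707474 (+ strand), held no GATA match, 1 POU word (ATGCAAA) and 1 SOX word (ACAATG). All of these summits but that of Cish lay outside annotated genes.

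GATA6 peaks were more numerous just before gene starts than after them. The summit was upstream of the start in 2175 members (65.9%) and at or downstream of it in 1124. The median position was -88 bp, with quartiles of -201 and 65 bp, and 1065 members (32.3%) had their summit within 100 bp of the start. In the annotation (GENCODE vM21), 1749 summits (53.0%) lay outside genes, 709 (21.5%) in a UTR, 488 (14.8%) in an intron, 234 (7.09%) in an exon of a non-coding transcript and 119 (3.61%) in a coding exon. Among the members, 339 lay within 500 bp of 2 or more gene starts, and 295 of these (8.94% of members) lay near starts on both strands. The X chromosome held 2.49% of the members and 4.32% of all protein-coding starts. In all, 3637 of 21938 protein-coding genes (16.6%) had a start with a member. Just inside the distance limit, the 218 regions at 400 to 500 bp had a median 2 h GATA6 fold of 5.94, and just outside it, the 207 regions at 500 to 600 bp had one of 6.27.

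GATA6 enrichment at promoters at 2 h was lower than at distal regions. Fold here is the enrichment of fragments at a peak summit over the local background of the control library, as the peak caller wrote it. The median of the mean fold over both lists was 5.98 in promoter regions (quartiles 4.72 and 8.07, highest 58.3) and 7.04 in distal regions (quartiles 5.20 and 10.8, highest 132). Promoter regions had a median width of 622 bp and distal regions 677 bp. Of the 1000 regions with the highest fold, 14 (1.40%) were members. The local background of the control also differed: it was more than 1.05 times the genome-wide background at 79.2% and 77.6% of promoter regions in the 2 lists, and at 60.2% and 58.5% of distal regions. A higher local background lowers the fold, and its part in these fold differences was not tested.

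Lists differed widely in depth, which bears on every share given below. The GATA6 0 h lists held 84 and 880 peaks, and the 28 other lists between 2253 and 79356. The background cover recovered from the fold and p-value of each peak was 0.287 and 0.315 fragments per base at 0 h for GATA6, between 0.928 and 1.34 in the other GATA6 lists, between 0.865 and 1.31 for NANOG, between 0.290 and 0.692 for SOX2, and 1.23 and 1.55 for SOX17. It could not be recovered for GATA4.

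GATA6 binding at promoters was mostly kept at 4 h and mostly gone from the lists by 48 h. Before induction, 1 of 3299 promoter regions (0.0303%) held a peak in the first GATA6 list and 9 (0.273%) in the second. At 4 h the lists covered 66.2% and 75.4% of promoter regions, at 8 h 36.3% and 45.3%, and at 48 h 6.91% and 11.9%. The 4, 8 and 48 h groups did not overlap. The mean share fell by 61.4 percentage points from 4 to 48 h, and the shares at 0, 4, 8 and 48 h differed beyond the spread between lists (F = 86.6, two-sided exact permutation test over 2520 arrangements of 8 lists, p = 0.00952, the smallest possible; Benjamini-Hochberg adjusted p = 0.0190 over 8 tests). The test takes in the 0 h lists, with their shares of 0.0303% and 0.273%, so its p-value does not bear on the fall from 4 to 48 h. This fall depends on list length. With each of the 6 later lists reduced to its 5930 best peaks, the mean share was 1.58 percentage points higher at 48 h than at 4 h. With the times of the record it was 31.4 percentage points higher. The exact permutation p was 0.00952 in both settings.

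Shares fell in distal regions too. The distal shares were 70.5% and 76.1% at 4 h, 44.7% and 46.9% at 8 h, and 7.15% and 9.19% at 48 h. The odds of a peak in promoter against distal regions are given as a log2 odds ratio, where 0 means equal odds. The 4 h lists gave -0.29 and -0.06, those of 8 h -0.51 and -0.09, and those of 48 h -0.05 and 0.41. The mean over these 6 lists was -0.10 ± 0.31 (SD, n = 6), above 0 in 1 of 6 lists, and was not told apart from 0 by the test (exact sign-flip permutation test, two-sided p = 0.438; adjusted p = 0.438). Matched on 5 bins of 2 h fold, the mean was positive, 0.37 (exact permutation p = 0.0312), with values of 0.34, 0.20 and 0.57 after 4, 8 and 48 h. With stronger peaks only in the later lists it was -0.49 (exact permutation p = 0.0312).

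Both lists of a time held a peak in 1937 promoter regions (58.7%) for GATA6 at 4 h, against 63.8% of all 44774 regions. The numbers at 8 h were 960 (29.1%) against 38.0% of all regions, and at 48 h 151 (4.58%) against 5.70%. The shares of promoter regions were below the background at each of these times, with the smallest gap in percentage points at 48 h. GATA6 was in both lists at 4, 8 and 48 h in 139 promoter regions (4.21%) and 5.26% of distal regions. It was in both lists at 4 and 8 h and in none at 48 h in 591 promoter regions (17.9%) and 28.5% of distal regions. In 496 promoter regions (15.0%) and 16.5% of distal regions, GATA6 was in none of these later lists.

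**Figure D1:**
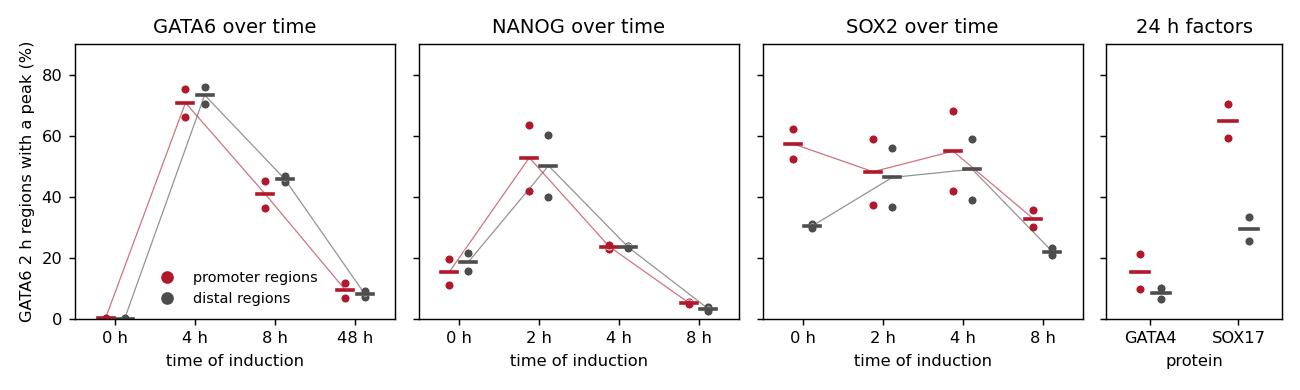
Share of GATA6 2 h regions that hold a peak (%, y axis) in each list by time of induction for GATA6, NANOG and SOX2, and at 24 h for GATA4 and SOX17. Points are single lists and bars the means of 2 lists, for 3299 promoter regions (red) and 41475 distal regions (grey). Promoter and distal points lie close together for GATA6 and NANOG, and apart for SOX2 at 0 h and SOX17.

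SOX2 occupied many of these promoters before GATA6 was induced. At 0 h, SOX2 peaks covered 62.2% and 52.4% of the promoter regions and 31.2% and 29.6% of the distal regions. The log2 odds ratios were 1.86 and 1.38. Neither promoter list overlapped the distal ones, and both SOX2 0 h lists together held 1484 members (45.0%), against 25.7% of all regions.

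At 2 h promoter and distal shares lay close together. SOX2 lists covered 37.4% and 58.9% of promoter regions and 36.7% and 55.9% of distal regions, with log2 odds ratios of 0.04 and 0.18. The distal mean was 30.4% ± 1.10 (SD, n = 2) at 0 h and 46.3% ± 13.6 at 2 h, whereas the promoter mean was 57.3% ± 6.97 and 48.2% ± 15.2. The shares of the 2 SOX2 lists at 2 h lie far apart, and so do their peak numbers, 24071 and 52572.

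At 8 h the odds ratios lay above those of 2 h, while those of 4 h overlapped the 2 h values. The shares at 4 h were 68.0% and 41.8% in promoter regions and 58.9% and 39.0% in distal regions (log2 odds ratios 0.57 and 0.17). At 8 h they were 35.6% and 30.0% against 23.3% and 20.8% (0.87 and 0.71). The differences between times in the SOX2 share of promoter regions itself did not pass the test (2 h minus 0 h -9.14 percentage points, F = 1.52, exact permutation p = 0.371, adjusted p = 0.438). At 11538 peaks per list they did (-11.4 percentage points, exact permutation p = 0.0286), and without the first SOX2 2 h list the difference was positive, at 1.62.

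The log2 odds ratio of SOX2 was above 0 in 8 of 8 lists, with a mean of 0.72 ± 0.64 (SD, n = 8; two-sided sign-flip test by exact permutation, p = 0.00781 as the smallest possible; adjusted p = 0.0190). These 8 lists come from 4 times and share their regions, so they are not replicates of 1 condition. The log2 odds ratio differed between the 4 times (F = 16.2, exact permutation p = 0.0190, adjusted p = 0.0305), and the difference from 0 to 2 h was -1.51. The test takes in all 4 times, so its p-value does not belong to the step from 0 to 2 h. The mean over the 8 lists did not pass the sign-flip test with stronger peaks only (−log10 q of at least 5, 0.35, exact permutation p = 0.141) or with 11538 peaks in every list (0.25, exact permutation p = 0.297). The change over time missed the threshold without the first SOX2 2 h list (-1.44, exact permutation p = 0.0571).

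The numbers of members in both SOX2 lists were 1082 (32.8%) at 2 h, against 33.3% of all regions, 1258 (38.1%) at 4 h, against 35.5%, and 691 (20.9%) at 8 h, against 14.9%. The 2 h number was close to the background, and the 8 h number above it. Of the 1484 members with SOX2 in both 0 h lists, 860 (58.0%) had it in both lists at 2 h, and 593 (40.0%) in both at 8 h. For distal regions with SOX2 in both 0 h lists, these shares were 69.7% and 29.4%. Of 1002 members with no SOX2 at 0 h, 84 (8.38%) were in both lists at 2 h, against 18.7% of such distal regions. Members with SOX2 in both 0 h lists but no list at 8 h made up 29.2%, against 48.3% of such distal regions.

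**Figure D2:**
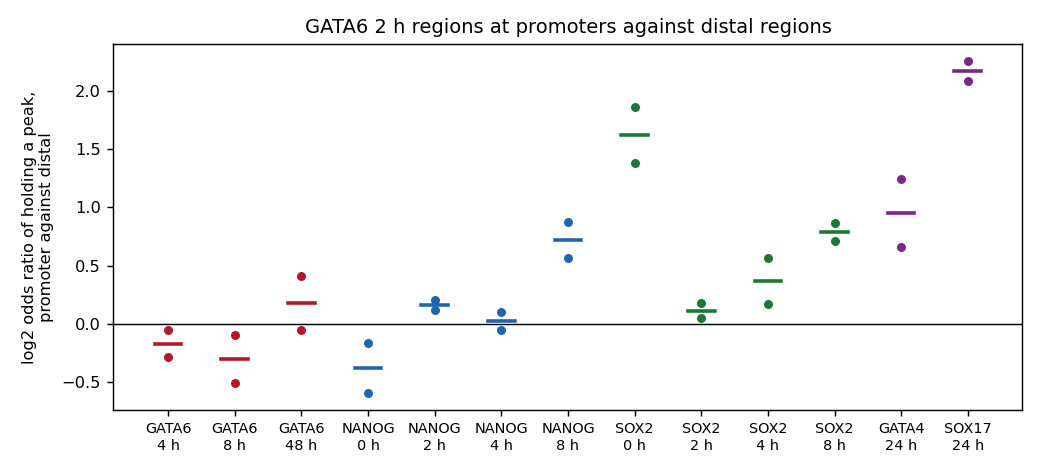
Log2 odds ratio of holding a peak, promoter against distal GATA6 2 h regions (y axis), for each protein and time of induction (x axis). Points are single lists, bars are means of 2 lists, and the line at 0 marks equal odds. SOX17 at 24 h (2.08 and 2.26) and SOX2 at 0 h (1.86 and 1.38) lie highest.

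Of the later PrE factors, SOX17 stood far apart at promoters. At 24 h SOX17 peaks lay in 59.2% and 70.5% of promoter regions, against 25.5% and 33.3% of distal regions. The log2 odds ratios were 2.08 and 2.26 (mean 2.17 ± 0.13, SD, n = 2). Both lists of promoter shares were above both distal lists, and no test was made on a single time with 2 lists. In 1808 members (54.8%) SOX17 was in both lists, against 25.1% of all regions. Over all peaks of each list, 13.2% and 11.4% of SOX17 peaks had a summit within 500 bp of a protein-coding start. These shares were 12.5% and 10.9% for SOX2 at 0 h and 11.9% and 9.57% for GATA4. They were 7.33% and 6.72% for GATA6 at 2 h and 3.92% and 4.73% for NANOG at 0 h.

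GATA4, a close relative of GATA6, covered 21.1% and 9.76% of promoter regions and 10.2% and 6.43% of distal regions. Its log2 odds ratios were 1.24 and 0.66. The lower promoter share lay below the higher distal share, so the lists overlapped. Both GATA4 lists held 253 members (7.67%), against 5.55% of all regions. Of these, 77 (30.4%) had GATA6 in both 48 h lists, against 57.7% of distal regions with GATA4 in both lists. Among the 2534 members in no GATA4 list the number was 41 (1.62%).

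SOX17 at 24 h and SOX2 at 0 h often shared a promoter region. SOX17 was in both lists in 1114 of the 1484 members with SOX2 in both 0 h lists (75.1%), and in 253 of the 1002 members without SOX2 at 0 h (25.3%). For distal regions the corresponding shares were 41.0% and 15.0%. SOX2 and SOX17 belong to 1 family of DNA-binding proteins. These lists come from separate samples at 0 and 24 h, so a shared region does not mean binding in the same cells or at the same time. Local background was raised at 82.5% and 80.4% of SOX17 peaks in promoter regions, against 73.1% and 67.4% in distal regions, and at 79.9% and 78.8% against 60.7% and 59.1% for SOX2 at 0 h. Restricted to the 536 promoter regions (16.2%) and 14020 distal regions (33.8%) at the genome-wide background in both GATA6 2 h lists, the mean log2 odds ratio was 2.29 for SOX17 and 1.44 for SOX2 at 0 h.

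NANOG binding at the promoters was low at 0 h, highest at 2 h and lowest at 8 h. The 2 lists covered 11.0% and 19.7% of promoter regions at 0 h and 63.6% and 41.9% at 2 h. They covered 23.0% and 24.3% at 4 h, and 5.55% and 4.76% at 8 h. The 2 h lists lay above the lists of every other time and the 8 h lists below. The mean rose by 37.4 percentage points from 0 to 2 h, and the shares differed over time (exact permutation test, F = 12.2, p = 0.00952 and adjusted p = 0.0190). With the 2253 best peaks of every NANOG list the same difference was 0.45 percentage points, and without either of the 8 h lists the test gave an exact permutation p of 0.0667.

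For NANOG, the order of promoter and distal shares varied with time and setting. The distal shares were 15.7% and 21.6% at 0 h, 60.3% and 40.0% at 2 h, 23.7% and 23.1% at 4 h, and 3.84% and 2.67% at 8 h. The log2 odds ratio was positive in 5 of 8 lists, with a mean of 0.13 ± 0.45 (SD, n = 8; exact sign-flip permutation test, p = 0.406, adjusted p = 0.438). It passed the test in opposite directions under other settings, at 0.72 in strength bins (exact permutation p = 0.0234) and at -1.01 with 2253 peaks per list (exact permutation p = 0.0391). It did change over time. The values were -0.60 and -0.17 at 0 h, 0.20 and 0.12 at 2 h, -0.06 and 0.10 at 4 h, and 0.56 and 0.87 at 8 h. The step from 0 to 2 h was 0.54, and both 8 h values lay above those of every other time. The test takes in 0, 2, 4 and 8 h together (F = 10.5, exact permutation p = 0.00952, adjusted p = 0.0190). Its p-value therefore does not belong to the step from 0 to 2 h. In the regions at the genome-wide background, a choice made after the data were seen, the step was 0.32. The test over all times there gave an exact permutation p of 0.0762. At equal peak numbers the step was 0.24, and the test over all times gave an exact permutation p of 0.00952.

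Both NANOG lists held 263 members (7.97%) at 0 h, against 13.0% of all regions, 1187 (36.0%) at 2 h, against 36.7%, 398 (12.1%) at 4 h, against 15.0%, and 42 (1.27%) at 8 h, against 1.07%. Promoter regions were below the background at 0 h and close to it at 2 h. Of 2550 members with no NANOG at 0 h, 632 (24.8%) held it in both 2 h lists, against 24.2% of such distal regions. Of the 263 members bound at 0 h, 237 (90.1%) were in both 2 h lists, 140 (53.2%) in both 4 h lists and 18 (6.84%) in both 8 h lists. The shares of distal regions bound at 0 h were similar, 88.0%, 46.2% and 4.60%.

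SOX2 without NANOG at 0 h was more frequent in members than in distal regions. Both SOX2 lists and no NANOG list held 881 members (26.7%) at 0 h, against 7.28% of distal regions. Both proteins were in both lists in 245 members (7.43%), against 11.4% of distal regions, and NANOG without SOX2 was found in 2 members (0.0606%) and 314 distal regions (0.757%). Neither protein was in any list at 0 h in 964 members (29.2%) and in 60.01% of distal regions. No NANOG, SOX2, GATA4 or SOX17 list held a peak in 152 members (4.61%), against 13.2% of distal regions.

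Shares changed gradually with the distance from the gene start. Within 100 bp, SOX2 at 0 h was found in 63.9% and 53.0% of regions and SOX17 in 57.2% and 72.2%. Between 400 and 500 bp these were 48.6% and 40.4% for SOX2 and 45.4% and 56.4% for SOX17, and at 500 to 600 bp, outside the limit, 50.2% and 41.5% and 46.9% and 55.1%. Farther than 50000 bp from any start they were 30.6% and 29.9%, and 21.9% and 29.0%. GATA6 at 4 h showed no such slope, with 64.9% and 74.4% within 100 bp and 70.5% and 75.5% in the farthest class. For SOX2 and SOX17, the classes just inside and just outside the limit had similar shares.

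**Figure D3:**
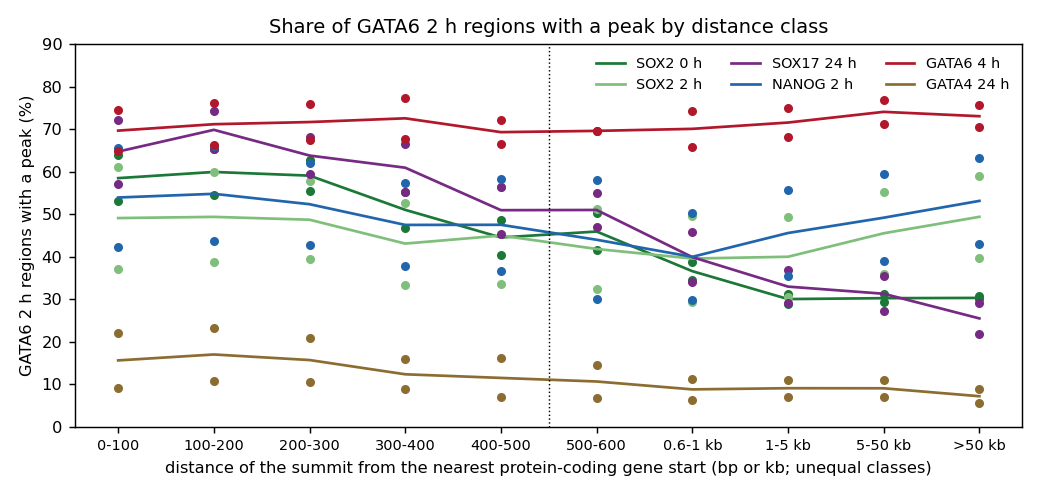
Share of GATA6 2 h regions with a peak (%, y axis) in classes of distance between summit and nearest protein-coding gene start (x axis, unequal classes), for 6 groups. Points are single lists, lines join the means of 2 lists, and the dotted line marks the 500 bp limit. SOX17 and SOX2 at 0 h fall with distance, while GATA6 at 4 h stays between 64.9% and 77.3%.

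Peaks of other proteins were more frequent at gene starts with a member than at starts without one. Starts without a member are not all free of GATA6, since 14.3% and 5.31% of them had a peak in the 2 h GATA6 lists. SOX2 at 0 h had a peak within 500 bp of 61.4% and 51.3% of the 3637 gene starts with a member, and of 11.9% and 7.68% of the 18301 starts without one. For SOX17 the shares were 58.8% and 70.2% against 10.0% and 14.6%, and for NANOG at 2 h 62.4% and 40.7% against 9.84% and 4.07%. Starts with a member were also richer in CpG, with 75.3% CpG-rich windows (G+C over 50% and observed over expected CpG over 0.6) against 42.4% of starts without one, and the part of sequence in this difference was not tested.

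Promoter regions had the base composition of promoters, and fewer of them than of distal regions held a GATA word. In windows reaching 100 bp to either side of the summit the median G+C content was 59.2% in members, 46.8% in distal regions and 58.7% around all protein-coding starts. The share of CpG-rich windows was 57.0%, 2.49% and 47.8% in this order. A GATA word lay in 24.6% of member windows, 56.4% of distal windows and 16.2% of windows around all starts. The GATA words hold more A+T than G+C, and the part of base composition in these shares was not tested. Member windows are centred on the summit and start windows on the gene start, so these shares also differ by position. In windows centred on the gene start, a GATA word lay in 13.97% of starts with a member and 16.65% of starts without one. The GC box (GGGCGG) was found in 48.6% of member windows, 7.20% of distal windows and 40.0% of start windows, and CCAAT in 39.4%, 24.7% and 28.2%.

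SOX words (ACAAAG or ACAATG, and also ACAAAA) were found in 21.7% of member windows and 47.5% of distal ones, and POU words (ATGCAAA or ATGCTAA) in 4.67% and 10.9%. Around all starts these shares were 22.3% and 3.29%. The SOX and POU words also hold more A+T than G+C, and the part of base composition in their shares was not tested. For the ETS word CCGGAAG the shares were 8.06% in members, 1.64% in distal regions and 9.60% around all starts. All words were searched on both strands, and the words of 1 protein family may overlap those of another. A match describes the letters in a window and does not show a bound site.

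**Figure D4:**
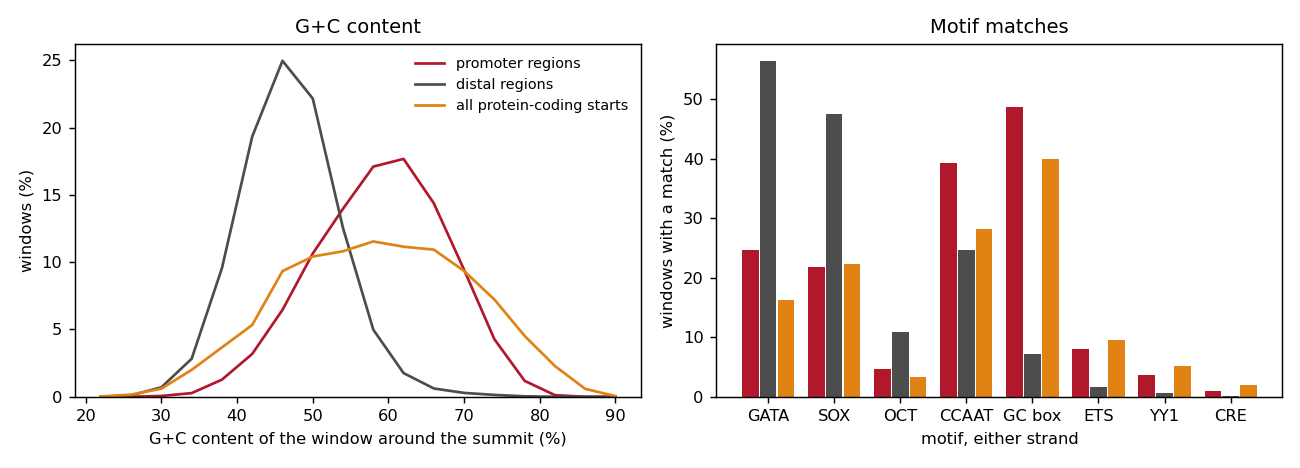
Left, distribution of the G+C content (%, x axis) of windows reaching 100 bp to either side of the summit or start, as share of windows (%, y axis). Right, share of windows with a match to each word on either strand (%, y axis). Red is promoter regions, grey distal regions and orange all protein-coding starts. Promoter regions have a median G+C content of 59.2%, and GATA words are found in 24.6% of them against 56.4% of distal regions.

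Promoter regions with a GATA word held GATA6 more often at later times. Of 813 members with a match, 71.8% and 79.2% held GATA6 at 4 h in the 2 lists, 44.5% and 54.2% at 8 h and 10.2% and 15.7% at 48 h. In the 2486 members without a match the shares were 64.3% and 74.1%, 33.5% and 42.4%, and 5.83% and 10.6%. The share was higher with a match in both lists at each of these times. Distal regions showed the same direction, for example 52.8% and 54.8% with a match against 34.2% and 36.7% without at 8 h. The median 2 h fold was 6.53 with a match and 5.84 without, so strength at 2 h moved with the match. GATA words lay in 40.3% of the 139 members bound at 4, 8 and 48 h, in 21.4% of the 496 members in no later list, and in 48.0% of the 100 members of highest 2 h fold.

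SOX2 at 0 h and SOX17 went the other way. SOX2 at 0 h covered 51.4% and 44.8% of members with a GATA word and 65.8% and 54.9% of those without. SOX17 covered 51.8% and 61.6% with a match and 61.6% and 73.4% without. Distal regions had the same direction, with 22.8% and 21.7% against 42.1% and 39.9% for SOX2 at 0 h and 24.5% and 32.2% against 26.8% and 34.6% for SOX17. CpG-rich members had higher SOX17 shares (65.6% and 77.2%) than CpG-poor members (50.7% and 61.7%), as did CpG-rich (44.3% and 53.8%) against CpG-poor distal regions (25.0% and 32.8%). Within CpG-rich regions the mean log2 odds ratio of promoter against distal regions was 1.40 for SOX17 and 0.90 for SOX2 at 0 h, and within CpG-poor regions 1.67 and 1.41. Matched on 5 bins of 2 h GATA6 fold, the values were 2.45 and 1.87, against 2.17 and 1.62 in all regions.

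The most strongly bound promoters illustrate the range of courses over time. Tnnt3, the fast skeletal muscle troponin T, had the highest mean fold, 62.6 and 54.0 at 2 h, 54.0 and 72.4 at 4 h, 35.3 and 37.4 at 8 h and 6.60 and 10.2 at 48 h. Its region, chr7:142498677-142500025, had no NANOG or SOX2 peak at 0 h, but SOX2 folds of 16.1 and 20.3 at 2 h and NANOG folds of 10.2 and 6.35. SOX17 had folds of 14.5 and 31.7 there, and GATA4 9.64 and 10.8.

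The region of Edn1, printed above, had GATA6 folds of 59.4 and 39.8 at 2 h, 44.9 and 50.4 at 4 h, 16.6 and 13.2 at 8 h and 7.04 and 7.40 at 48 h. In contrast to Tnnt3 it held NANOG (4.18 and 7.84) and SOX2 (9.89 and 19.1) at 0 h. SOX2 was at 24.2 and 40.3 at 2 h, and NANOG at 22.0 and 14.4.

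Tcf3, with 3 GATA matches in its printed window, had GATA6 folds of 46.0 and 40.4 at 2 h, 33.3 and 34.5 at 4 h, 18.2 and 16.2 at 8 h, and 5.36 and 3.41 at 48 h. Ripk2, without one, had 45.3 and 35.1, 35.7 and 43.7, 22.3 and 25.9, and 8.82 and 8.57 at these times. The 2 h ranges overlapped, and at the later times both Ripk2 values were above both Tcf3 values. SOX17 folds were 11.9 and 7.95 at Tcf3 and 24.2 and 23.5 at Ripk2. The Cish region had GATA6 folds of 38.5 and 36.2 at 2 h and 7.64 and 8.75 at 48 h, and SOX17 in 1 list only, at 3.88. The others among the 10 highest were Tmem253, Fbxo24, Cdca7, Tedc2 and Smim3, and Tmem253 and Smim3 were the ones with no GATA6 peak at 48 h.

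Among the 139 members with GATA6 in both lists at 4, 8 and 48 h, Tedc2, which encodes a centriole-associated protein, had the highest fold at 48 h. Its GATA6 folds were 45.1 and 36.9 at 2 h, 32.4 and 45.0 at 4 h, 22.7 and 33.5 at 8 h and 26.0 and 30.5 at 48 h, so the range at 48 h overlapped that at 8 h. C330021F23Rik and Dennd2c had higher folds at 48 h than at 2 h. C330021F23Rik had 10.6 and 8.09 at 2 h and 18.1 and 23.0 at 48 h, with SOX17 at 25.4 and 30.5. Dennd2c had 8.39 and 3.84 at 2 h and 16.3 and 13.8 at 48 h, with SOX17 at 20.4 and 26.1. Iqsec1 and Ppm1k followed, at 14.0 and 14.0, and 14.5 and 10.8, at 48 h. Folds of different lists rest on different depths, so they were compared only by the ranges given.

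New NANOG binding at 2 h was strongest at Lrrn4, Cdca7, Tmem253, Fam221a and Il22ra1. At Lrrn4, in none of the 0 h NANOG lists, NANOG folds were 24.2 and 15.3 at 2 h, 22.0 and 25.3 at 4 h and 7.40 and 5.50 at 8 h. SOX2 was already there at 0 h (6.36 and 6.16) and reached 58.0 and 29.1 at 4 h. At Cdca7, a cell cycle gene with 4 GATA words within 100 bp of the summit, NANOG was at 24.7 and 13.1 at 2 h, and SOX2 was in no 0 h list but at 8.85 and 9.25 at 2 h. Il22ra1, an interleukin receptor gene, had NANOG at 14.9 and 11.6 and SOX2 at 9.37 and 17.2 at 2 h, neither of them at 0 h, and no GATA4 peak.

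NANOG was in both lists at 0, 2, 4 and 8 h in 17 members. The highest at 8 h were Zfp78, Fbxo24, Chek2, Rhpn2 and Mtrf1l. At Rhpn2 NANOG folds were 12.2 and 21.9 at 0 h, 35.7 and 21.1 at 2 h, 18.1 and 16.8 at 4 h and 5.82 and 6.97 at 8 h. The 8 h folds lay below those of the other times. Chek2, the checkpoint kinase, had 6.50 and 12.5 at 0 h and 7.29 and 5.85 at 8 h, which overlap. All 5 held SOX2 in both lists at each time and SOX17 in both lists.

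Among the 152 members that held no other factor, the highest 2 h folds were 19.2 and 8.53 at Fev, an ETS factor gene of serotonergic neurons, 11.1 and 6.22 at Nfu1, an iron-sulfur cluster gene, and 10.0 and 6.95 at Gm49366. Tmem88 and Gm20509 followed. All 5 kept GATA6 in both 4 h lists and none held it at 48 h, while Fev and Gm49366 also held it in both lists at 8 h.

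Lineage and signalling genes were compared next, by lists drawn up with earlier results of these data known. A member lay at the start of 2 of 10 PrE regulators, 4 of 12 basement membrane genes, 9 of 24 pluripotency factors, 9 of 21 FGF and ERK genes, 5 of 18 NODAL and BMP genes and 6 of 16 WNT genes. None of the 4 endocytic receptors, 12 secreted proteins of visceral endoderm and 10 trophectoderm regulators had one. The share of all protein-coding genes with a member was 16.6%. The 35 genes with a member had 36 regions, since Fgfr1 has 2.

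GATA6 was in the later lists at these regions about as often as at all regions. At 4 and 8 h its counts lay above the shares of promoter regions at large. GATA6 was in both lists in 25 of 36 regions at 4 h, in 16 at 8 h and in 2, those of Id3 and Smad5, at 48 h. The shares of all regions were 63.8%, 38.0% and 5.70%, and those of all promoter regions 58.7%, 29.1% and 4.58%. Both SOX2 lists held 19 regions before induction, and 13, 16 and 13 regions after 2, 4 and 8 h. The shares of all regions were 25.7%, 33.3%, 35.5% and 14.9%, and those of all promoter regions 45.0%, 32.8%, 38.1% and 20.9%. Both NANOG lists held 6 regions before induction, and 23, 6 and 0 after 2, 4 and 8 h, against 13.0%, 36.7%, 15.0% and 1.07% of all regions. Of all promoter regions, 7.97%, 36.0%, 12.1% and 1.27% held NANOG in both lists at these times. SOX17 was in both lists in 22 regions, against 25.1% of all regions and 54.8% of promoter regions. GATA4 was in both lists in 1, that of Smad5, against 5.55% of all regions and 7.67% of promoter regions.

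Among PrE regulators, Gata4 and Klf6 had a member. The Gata4 region, chr14:63271519-63271946, in the UTR 58 bp after its start, held GATA6 at folds of 4.90 and 5.90 at 2 h, 5.48 and 5.98 at 4 h, 4.57 and 7.65 at 8 h, and 4.26 in the second 48 h list only. No NANOG, SOX2, GATA4 or SOX17 list had a peak there. At Klf6, a zinc finger factor gene, GATA6 was at 12.4 and 7.98 at 2 h and 5.20 and 7.73 at 4 h, and SOX17 at 9.11 and 6.37. The other 8 PrE regulators had no member at their start, which says nothing of more distant sites.

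The basement membrane genes with a member were those of laminin chains (Lama1, Lama5, Lamc1) and perlecan (Hspg2), proteins that PrE cells deposit. All 4 held GATA6 in both 4 h lists, Lamc1 alone at 8 h, and none at 48 h. At Lamc1 the GATA6 folds were 11.0 and 14.9 at 2 h, 10.4 and 15.6 at 4 h and 7.94 and 8.57 at 8 h. SOX17 was at 12.6 and 15.3 at Lamc1, 14.8 and 14.9 at Lama1 and 15.0 and 21.4 at Hspg2, but in no list at Lama5.

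Of the pluripotency factors, Dppa2, Gdf3, Klf2, Klf5, Lin28a, Nanog, Sox2, Tcl1 and Zfp42 had a member, and 7 of the 9 held SOX2 in both 0 h lists. At Nanog, GATA6 folds were 6.78 and 4.81 at 2 h, 3.77 and 4.32 at 4 h and 3.04 and 2.78 at 8 h, with none at 48 h. The same promoter had no NANOG peak at 0 h and folds of 8.15 and 3.502 at 2 h, while SOX2 was at 7.72 and 10.9 at 0 h and 3.91 and 5.61 at 2 h. At Sox2, GATA6 was at 8.41 and 5.73 at 2 h and in 1 list (6.61) at 4 h. NANOG at Sox2 was likewise absent from the 0 h lists and at 8.03 and 5.49 at 2 h. Dppa2, an early embryonic gene, had the strongest GATA6 peak of the list, 22.2 and 14.7 at 2 h, 11.0 and 10.5 at 4 h and 11.4 and 14.1 at 8 h. Zfp42, the gene of REX1, held NANOG at 6.84 and 4.32 at 0 h and 14.3 and 8.55 at 2 h.

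FGF and ERK signalling, which directs cells towards PrE, was represented at several levels. The receptor gene Fgfr1 had 2 regions, the adaptor Grb2 and the exchange factor Sos1 had 1 each, and so did the feedback inhibitors Dusp4, Dusp6 and Spry4 and the target factors Etv4 and Etv5. Etv5 and Spry4 had the highest GATA6 folds at 2 h, 17.5 and 14.8, and 16.7 and 13.1. At Etv5 GATA6 was at 11.7 and 17.3 at 4 h and 12.9 and 8.48 at 8 h and in no list at 48 h. NANOG was at 8.28 and 9.57 at 0 h and 17.4 and 11.9 at 2 h at Etv5.

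SOX factors were strong at Etv4 and Spry4. At Etv4 SOX2 folds were 23.3 and 17.1 at 0 h, 16.6 and 27.2 at 2 h, 35.0 and 16.3 at 4 h and 16.3 and 23.0 at 8 h, and SOX17 was at 19.3 and 39.6. The SOX2 values of the 4 times overlapped. At Dusp6 SOX17 was at 11.5 and 13.3, and at Grb2 at 6.55 and 6.86. The second Fgfr1 region held no factor in both lists beyond GATA6 at 2 h.

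Among NODAL and BMP genes, the receptor-activated transducer Smad5 and the target Id3 were bound by GATA6 throughout. Smad5 had GATA6 folds of 34.6 and 22.0 at 2 h, 23.4 and 34.5 at 4 h, 25.1 and 20.9 at 8 h and 5.45 and 11.3 at 48 h, and GATA4 at 11.8 and 7.84. At Id3 the GATA6 folds were 17.9 and 16.1, 14.1 and 17.4, 10.8 and 12.9, and 4.79 and 8.66. The 48 h folds were the lowest in both genes. NANOG at Id3 was at 19.7 and 17.3 at 2 h and 12.4 and 8.12 at 4 h. The ligand gene Bmp4, the target Id2 and the shared transducer Smad4 did not hold GATA6 in both lists at any later time.

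Of the WNT genes, Axin1, Axin2 and Gsk3b encode parts of the complex that degrades β-catenin, Fzd5 a receptor, and Sp5 and Tcf7l1 factors at the end of the pathway. GATA6 was in both 4 h lists at 5 of the 6, Tcf7l1 being the exception. Sp5 had GATA6 at 10.4 and 6.96 at 2 h, 7.54 and 10.7 at 4 h and 4.85 and 5.64 at 8 h. SOX2 at Sp5 was at 16.2 and 16.6 at 0 h and 5.45 and 11.9 at 2 h, so both 0 h values were above both 2 h values. At Axin2 GATA6 was at 13.3 and 8.60 at 2 h, 8.81 and 10.2 at 4 h and 7.68 and 9.54 at 8 h.

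**Figure D5:**
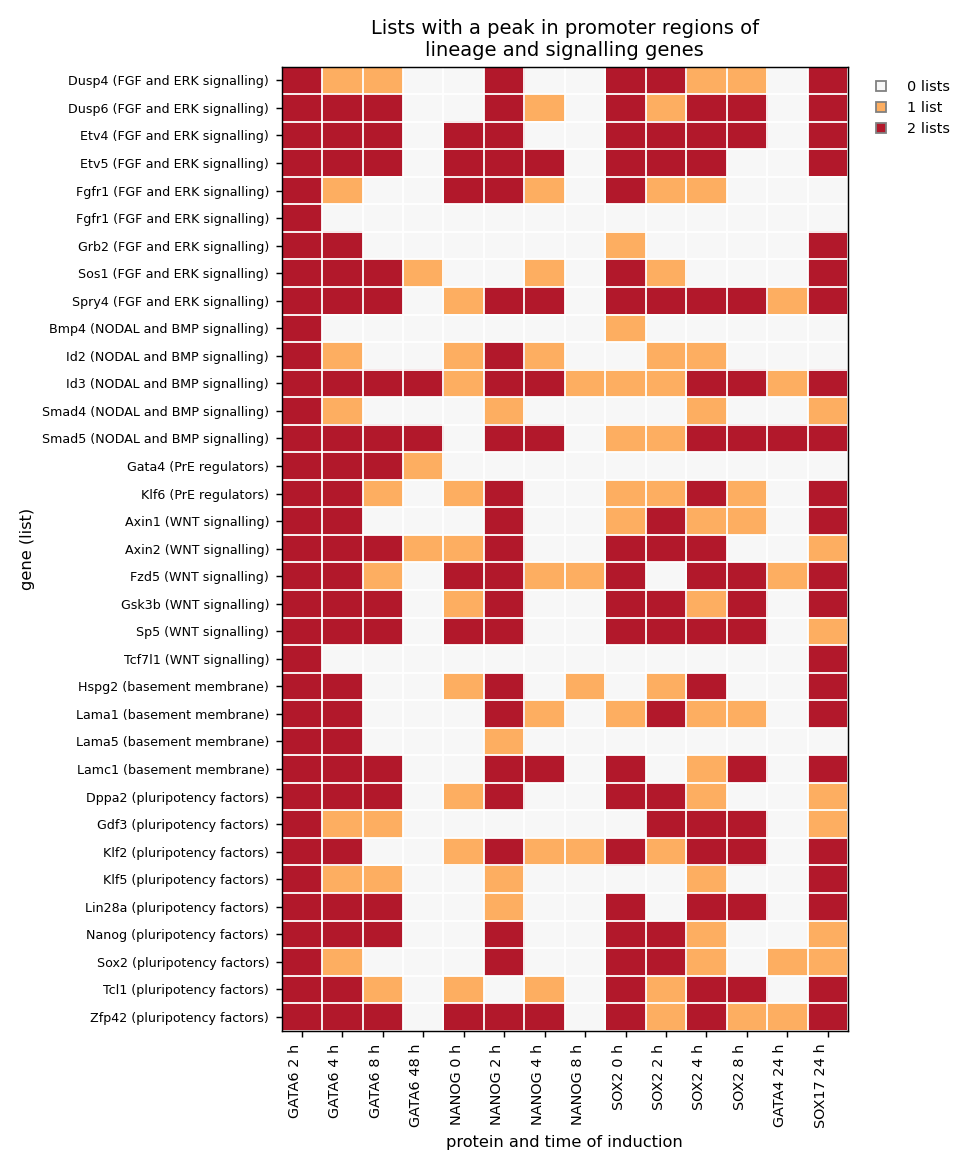
Number of lists (0, 1 or 2) with a peak in 35 of the 36 promoter regions of lineage and signalling genes (y axis, gene and list) by protein and time of induction (x axis). All 35 hold GATA6 in both 2 h lists by selection. The column of GATA6 at 48 h has 2 lists at Id3 and Smad5 alone, and SOX2 at 0 h has 2 lists in 19 regions.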

How the data were processed

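Binding of GATA6, NANOG, SOX2, GATA4 and SOX17 was measured by CUT&RUN in 30 libraries, 2 for each of 15 groups, and groups and replicate numbers were taken from the titles. Per the labels and the study's methods, the authors aligned reads to mm10 with Bowtie2, removed blacklisted reads with SAMtools, kept duplicates, which Picard had marked, and called narrow peaks with MACS for each library against a rabbit anti-rabbit control. The only control library in the series is labelled IgG at 48 h, and whether it served for the lists of every time was not checked. The deposited lists give for each peak its position, a score (not used), the fold (a ratio over the local background), the −log10 p-value and the −log10 q-value, and the summit offset. The smallest −log10 q in the deposited lists was 1.30. The number of peaks behind each share, given per list, and the background cover stand for depth, since the lists give no read totals.

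Peaks on the 21 nuclear chromosomes were used, and 2 to 4 peaks per list elsewhere were left out. Overlap of 1 bp with a region counted as a peak in it. Summits were the peak with the highest −log10 q. Gene starts came from GENCODE vM21 (GRCm38, the same build). Log2 odds ratios were computed with 0.5 added to each count. Fragment pileup and local background were recovered from fold and p-value within a relative tolerance of 0.0001, except for the GATA4 lists. Time differences were tested by exact permutation of lists among times with F, and mean log2 odds ratios by exact sign flips, two-sided, with Benjamini-Hochberg adjustment over 8 tests. Regions are not replicates and were not tested. The study's reporting summary calls replicate experiments independent, and the labels do not say whether they were separate cultures, so p-values measure only the spread between these samples.

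Regions named were the 10 of highest mean GATA6 2 h fold, the 5 of highest GATA6 48 h fold among those bound at 4, 8 and 48 h, the 5 of highest NANOG 2 h fold among those new at 2 h, the 5 of highest NANOG 8 h fold among those with NANOG at all times, the 5 of highest GATA6 2 h fold without another factor, and the members in lists of lineage and signalling genes, of which 1 is counted but not reported here. Members and lists were chosen with earlier results of these data known. Alternatives were other start sites, distances, overlaps, thresholds, peak numbers, strength bins, the times of the record, a replicate block and leaving out each list. Scripts were tested on simulated data. Python 3.11.15, NumPy 2.4.6, pandas 2.3.3, SciPy 1.17.1 and Matplotlib 3.10.9 were used.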

Additional observations from a re-analysis of the deposited data

Results flagged for a closer look

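The promoter against distal contrast differed between times of induction for both Epi factors. For NANOG the mean log2 odds ratio was -0.38 ± 0.30 (SD, n = 2) at 0 h and 0.16 ± 0.06 at 2 h, a difference of 0.54, and the test over the 4 times gave an exact permutation p of 0.00952 (adjusted p = 0.0190). For SOX2 it was 1.62 ± 0.34 at 0 h and 0.11 ± 0.09 at 2 h, a difference of -1.51. The SOX2 test over the 4 times gave an exact permutation p of 0.0190 (adjusted p = 0.0305). These p-values are for the 4 times together and not for the step from 0 to 2 h. The NANOG and SOX2 differences have opposite signs, and the difference between the proteins was not tested. In regions at the genome-wide background the NANOG difference was 0.32, and the NANOG test over the 4 times gave an exact permutation p of 0.0762. Without the first SOX2 2 h list the SOX2 test gave an exact permutation p of 0.0571. Medium and induction both changed between 0 and 2 h.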

How the results depend on the processing

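Results were recomputed under up to 11 alternatives each, besides leaving out each list. The fall of GATA6 in promoter regions turned into a rise of 1.58 percentage points at equal peak numbers (5930) and of 31.4 with the times of the record. The exact permutation p, from a test that takes in the 0 h lists, was 0.00952 in both. The GATA6 log2 odds ratio turned positive with the union of both lists (0.012), GATA6 2 h peaks of −log10 q of at least 5 (0.11), strength bins (0.37, exact permutation p = 0.0312) and regions at the genome-wide background (0.13), and was -0.49 (exact permutation p = 0.0312) with stronger peaks in the other lists and -1.02 (exact permutation p = 0.0625) at equal peak numbers. For NANOG it was negative at 1000 bp (-0.0048), with stronger peaks in the other lists (-0.32), at 2253 peaks per list (-1.01, exact permutation p = 0.0391) and at the genome-wide background (-0.058), and 0.72 in strength bins (exact permutation p = 0.0234). Its change from 0 to 2 h was 0.32 at the genome-wide background, an alternative chosen after seeing the data. The NANOG test over all times there gave an exact permutation p of 0.0762. The SOX2 log2 odds ratio fell to 0.35 with stronger peaks and 0.25 at 11538 peaks per list, where the SOX2 share differed over time (-11.4 percentage points from 0 to 2 h, exact permutation p = 0.0286).

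No pairing by replicate number was seen in the peak calls of single regions: deviations of same-numbered lists from their group means correlated between -0.0687 and 0.0147. This measure removes any shift common to a whole list, so it cannot exclude a pairing. With the replicate block, the SOX2 change over time (-1.51) had an exact permutation p of 0.0833, and the block ended no other call, with p = 0.0417, the smallest it allows in an exact permutation test, for the GATA6 and NANOG shares and the NANOG change over time.

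Leaving out 1 list in turn gave ranges of -66.0 to -43.4 (GATA6 share), 26.6 to 48.3 (NANOG share), -19.9 to 1.62 (SOX2 share, positive without the first SOX2 2 h list), -0.20 to 0.12 (GATA6 log2 odds ratio, positive without the first GATA6 2 h list), 0.02 to 0.31 (NANOG), 0.56 to 0.89 (SOX2), 0.33 to 0.76 (NANOG over time) and -1.75 to -1.20 (SOX2 over time). The NANOG share missed the threshold without either 8 h list (exact permutation p = 0.0667) and the SOX2 change over time without the first SOX2 2 h list (exact permutation p = 0.0571). The number of promoter regions was 4176 with transcript starts, 4247 at 1000 bp, 6514 in the union and 2011 with stronger GATA6 2 h peaks. The causes of these changes were not tested. Shallow lists miss weak sites, so a region without a peak was not detectable as bound at that depth.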

Other observations

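Some families of widely expressed and clustered genes also had members at their starts. Of all protein-coding genes, 16.6% had one. Cytosolic ribosomal proteins had a member at 15 of 83 genes (18.1%), proteasome subunits at 8 of 39 (20.5%) and translation initiation factors at 11 of 55 (20%). Spliceosomal small ribonucleoproteins had one at 6 of 34 (17.65%), mitochondrial ribosomal proteins at 18 of 78 (23.1%) and MCM and origin recognition genes at 4 of 12 (33.3%). Zinc finger protein genes had one at 100 of 365 (27.4%), replication-dependent histones at 20 of 67 (29.85%), Hox genes at 4 of 39 (10.26%) and olfactory receptor genes at 4 of 1093 (0.366%). Zinc finger and histone genes share sequence within their families, so peaks there can depend on how reads were placed.

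SOX2 and SOX17 were more frequent in the histone promoters than in promoter regions at large. Of the 17 regions at histone genes, SOX2 was in both lists in 16 at 0 h, and the 2, 4 and 8 h numbers were 14, 12 and 10. SOX17 was in both lists in 13. The shares of all regions were 25.7% for SOX2 at 0 h, then 33.3%, 35.5% and 14.9%, and 25.1% for SOX17. The shares of all promoter regions were 45.0% for SOX2 at 0 h, then 32.8%, 38.1% and 20.9%, and 54.8% for SOX17. GATA6 was in both lists in 10 at 4 h, 6 at 8 h and 0 at 48 h, against 63.8%, 38.0% and 5.70% of all regions. NANOG was in none of the 17 in both lists at 0 h and in 4 at 2 h, against 13.0% and 36.7%. The 15 regions at cytosolic ribosomal protein genes held SOX2 in both 0 h lists in 4, SOX17 in 5, GATA6 in 5 at 4 h and NANOG in 1 at 2 h. At the 94 regions of zinc finger protein genes, SOX2 at 0 h was in both lists in 48, SOX17 in 47, NANOG in 11 at 0 h and 31 at 2 h, and GATA6 in 53 at 4 h and 2 at 48 h, where the shares of all promoter regions were 45.0% for SOX2 at 0 h, 54.8% for SOX17, 7.97% and 36.0% for NANOG and 58.7% and 4.58% for GATA6. These families were compared by counts with no test.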
